A study of Mus musculus with 16 samples.

Results

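The hindbrain floor plate is the strip of cells that lines the ventral midline of the developing hindbrain. Its cells were taken here as the cells that the authors' label transfer from a mouse gastrulation and early organogenesis atlas named Hindbrain floor plate, that passed their RNA quality filter and that were not called doublets. Of 1051 such cells, 19 came from a tdTomato-negative sort but held a tdTomato transcript and were left out, as the study did, which left 1032 of 37841 cells, or 2.73%. None of the 1032 was found at embryonic day (E) 7.5, where 0 of 5038 cells carried the label, which allows a share of up to 0.0595%; 217 came from E8.5 and 815 from E9.5.

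The floor plate is induced by Sonic hedgehog from the underlying notochord and then makes Sonic hedgehog itself, so that it becomes a ventral signalling centre of the neural tube. Graded hedgehog signal from the midline sets the order of transcription factor domains along the dorsoventral axis, and the receptor Ptch1 and the transcription factor Gli1 are targets of the same signal. Floor plate cells also secrete netrin and Slit proteins, which attract or repel growing axons at the midline, and the forkhead factor Foxa2 is needed for their formation.

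The embryos were chimeras. Stat3 null embryonic stem cells, which came from the study's line on an outcrossed CD1 background and carried a histone-tagged tdTomato transgene under the ubiquitous CAG promoter, were injected into CD1 blastocysts, and embryos were dissociated whole, sorted for tdTomato and sequenced with a droplet method that counts one 3′ tag per transcript (a UMI). Null cells are the tdTomato-positive sort, and WT cells are the host cells of the same embryos, the tdTomato-negative sort without a tdTomato UMI. The floor plate was present in 2 WT and 2 null libraries at E8.5 and in 4 WT and 4 null libraries at E9.5; replicate letters A to D only name the libraries within a group and pair nothing. Since the null cells are the progeny of injected cultured cells and the WT cells are not, genotype cannot be told apart from line and culture history. Per the labels about 4 embryos were pooled per E8.5 sample and 1 embryo made each E9.5 sample, whereas the study's methods count 2 embryos at E9.5, so whether the 4 libraries of a group are 4 embryos is not known, and p-values measure the spread between libraries, which may be partly technical.

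The 16 libraries of the series held 20682659 to 138613245 UMIs and 360 to 4327 kept cells each, under 87 atlas labels. The 12 libraries used here gave 32 to 138 floor plate cells and 680469 to 3679368 floor plate UMIs each, with a median of 25319 UMIs per cell. Library medians ran from 15085 to 23347 UMIs per cell at E8.5 and from 21648 to 36352 at E9.5, so depth moved with stage. A tdTomato UMI was found in 62.5% and 94.4% of the null cells in the E8.5 null libraries and in 94.0% to 98.9% at E9.5. The confidence of the transferred label, a fraction of agreeing atlas neighbours, had a median of 1, and 76 cells were below 0.5. Among the floor plate cells, 2 barcodes occurred in 2 libraries, against 527 of 37908 barcodes over all singlets.

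The label was checked against the markers of the floor plate. Levels are given as CPM, the UMIs of a gene per 1000000 UMIs summed over the floor plate cells of a library or group. Because the label was itself transferred from expression, these levels describe the cells and are not tested. Over all libraries Shh (chr5:28456815-28467256, minus strand, mm10), the secreted morphogen, stood at 274 CPM, which ranked 2 of 77 labels after the notochord (773 CPM), against 3.92 CPM in Ventral hindbrain progenitors. Foxa2 (chr2:148042877-148046969, minus strand) stood at 177 CPM, the highest of any label (next 91.8). Nkx6-1 (chr5:101658139-101664996, minus strand), a ventral homeodomain factor, was also highest here at 150 CPM, but only just above Dorsal midbrain neurons (147 CPM). Ventral hindbrain progenitors held Nkx6-1 at 83.5 CPM. The netrin gene Ntn1 (116 CPM), the secreted adhesion protein F-spondin gene Spon1 (301 CPM, next label 118), Slit1 (93.1 CPM, next 19.3) and the basic helix-loop-helix factor Ferd3l (25.3 CPM, next 1.42) ranked 1 as well. Other floor plate genes did not: Lmx1b ranked 3 (26.7 CPM, Epidermis 39.0), Corin 4 (8.44 CPM, Endocardium 14.0) and Foxa1 5 (48.5 CPM, Midgut 91.3). Nkx2-9 (168 CPM, Ventral hindbrain progenitors 99.99) and Nkx2-2 (27.3 CPM, next 9.51), genes of the neighbouring ventral domain, also ranked 1 in this label. Of the markers of tissues that also express Shh or Foxa2, the notochord genes T (1.21 CPM, 967 in the notochord) and Noto (0, 151 in the notochord) and the endoderm genes Sox17 and Foxa3 (0.0346 CPM each) were near 0. Others were not, such as the BMP antagonist gene Nog (15.5 CPM, 223 in the notochord) and the epithelial adhesion gene Epcam (4.39 CPM), and over the libraries the 13 node and notochord markers summed to 116 to 236 CPM and the 13 gut endoderm markers to 167 to 335.

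The labelled cells were not uniform. Each cell was thinned to 10000 UMIs so that libraries of unequal depth could be compared, and Shh was then seen in 689 of 1032 cells, or 66.8% (95% exact binomial interval 63.8 to 69.6, counting error only; 74.8% before thinning). The same count in embryo endothelium, which should lack Shh and had a median of 29538 UMIs per cell, was 5 of 425 cells, or 1.18%. By library the share ran from 37.2% in E8.5 WT B to 86.7% in E9.5 null C. E8.5 WT B was also the library with the lowest UMIs per cell (15085), and its Shh level of 89 CPM was the lowest of the 12.

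Cells with and without a Shh UMI carried different midline and lateral genes. In the 689 cells with Shh, Spon1 stood at 415 CPM against 104 in the others, the guidance gene Slit2 at 266 against 39.9, Ntn1 at 145 against 67.1, and the heparan sulphate sulphatase gene Sulf1 at 316 against 86.9. The reverse held for Nkx2-9 (72.4 CPM with Shh, 345 without) and Nkx6-2 (16.4 and 168), genes of the ventral progenitor domains beside the floor plate, and for the hedgehog targets Ptch1 (196 and 409) and Gli1 (6.82 and 19.2). Each of these 8 genes differed in the same direction in all 4 groups of stage and genotype. Foxa2 was at 215 CPM with Shh and 136 without, yet in the E8.5 null group the levels were 222 and 224. These splits use the same cells and the same counts, and are given without a test.

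**Figure D1:**
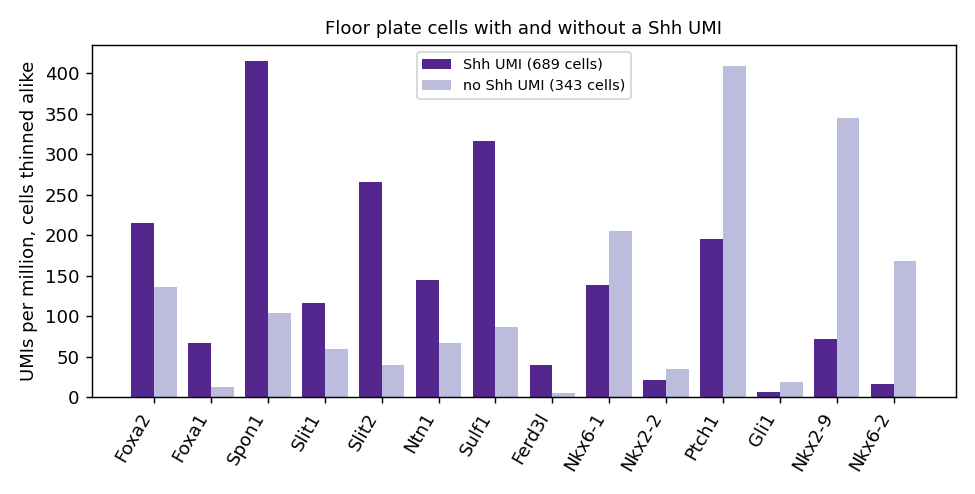
Level of 14 genes, in CPM, in the 689 floor plate cells with and the 343 without a Shh UMI, all libraries together and every cell thinned to 10000 UMIs; bars are levels of summed counts and carry no error. Spon1, Slit2 and Sulf1 stand higher in cells with Shh, and Nkx2-9, Nkx6-2 and Ptch1 in cells without it.

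Shh and Nkx2-9 were seen together in 214 cells, Shh alone in 475, Nkx2-9 alone in 240 and neither in 103. Nkx2-9 was seen in 73.1% of WT and 64.7% of null cells at E8.5, and in 38.5% and 36.7% at E9.5; over all cells its share was 44.0%, against 1.18% in endothelium. The share of labelled cells with the lateral gene Nkx2-9 was thus higher at E8.5 than at E9.5, in both genotypes.

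The label also spanned more than the hindbrain. Otx2, which marks forebrain and midbrain, was seen in 22.9% of the cells (4.24% in endothelium), and En1, a gene of the midbrain-hindbrain boundary, in 21.3% (0.471%). A UMI of any of 39 Hox genes, the positional genes of hindbrain and trunk, was found without Otx2 in 640 cells, Otx2 without Hox in 144, both in 92 and neither in 156. The 144 Otx2 cells had En1 at 187 CPM (23.9 in the 640 Hox cells), the midbrain floor plate gene Lmx1a at 40.3 (3.28), Wnt5a at 83.3 (32.8) and Foxa1 at 95.1 (33.4). The 640 Hox cells had more Slit1 (124 CPM against 14.6) and Spon1 (351 against 159). Shh was at 329 CPM in the Otx2 cells and 278 in the Hox cells. A Hox UMI was seen in 39.0% of the cells with Otx2 and in 80.4% of those without it. Hoxb4 was seen in 33.5% of floor plate cells and in 32.9% of endothelial cells. These shares cannot tell background from expression in endothelium, so how cleanly Hox UMIs mark single cells is not known.

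The question whether null cells contributed to the floor plate as WT cells did was put to the cell numbers. At E8.5 the floor plate made up 1.38% and 1.12% of the cells in the WT libraries and 2.79% in both null libraries, which did not overlap (1.25% ± 0.178 SD against 2.79%, n = 2 each). At E9.5 the shares were 3.64%, 4.43%, 5.36% and 2.53% in WT (3.99% ± 1.20, n = 4) and 3.19%, 3.49%, 5.65% and 4.66% in null (4.25% ± 1.13, n = 4), and the groups overlapped. The log2 ratio of null to WT was 1.16 (SE 0.33) at E8.5, unadjusted p = 0.0155 and adjusted p = 0.351 by edgeR's quasi-likelihood test over 68 labels, of which 0 were called and 3 were under 0.05 before adjustment (0 and 1 with DESeq2). At E9.5 it was 0.06 (SE 0.37, adjusted p = 0.997 over 71 labels by edgeR). The difference between the stages was -1.12 on the log2 scale (edgeR, adjusted p = 1.0 over the labels). A two-sided exact permutation test of the share gave p = 0.743 at E9.5 and p = 0.133 over both stages, and 2 libraries against 2 at E8.5 cannot go below 0.333.

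Set against its nearest neighbour, the floor plate took 25% and 21.7% of the summed floor plate and Ventral hindbrain progenitor cells in the E8.5 WT libraries and 42.0% and 42.1% in the null ones. At E9.5 it took 40.8% to 48.9% in WT and 42.0% to 57.7% in null. The mean difference over both stages was 9.96 percentage points (exact permutation p = 0.143, two-sided). The mean atlas stage to which floor plate cells mapped was 8.93 for WT and 8.89 for null cells of E8.5 and 9.05 and 9.04 for those of E9.5 (exact permutation p = 0.367 over both stages).

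**Figure D2:**
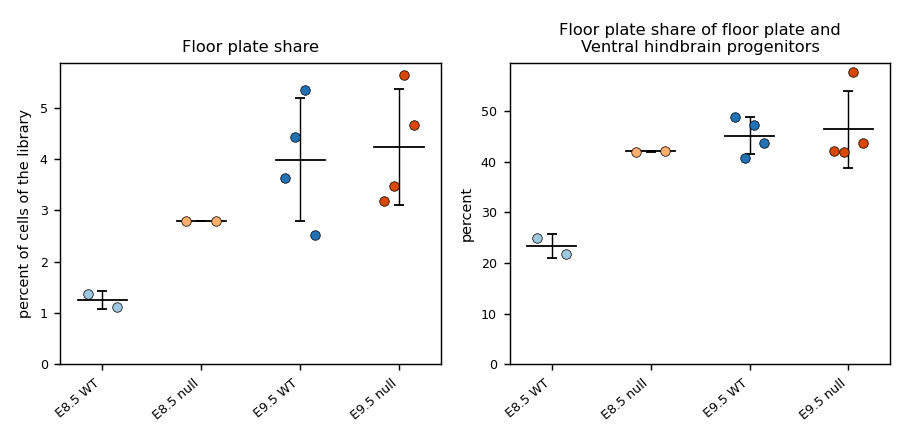
Floor plate cells as a percentage of all cells, and of floor plate plus Ventral hindbrain progenitor cells, per library, for WT and null at E8.5 and E9.5; points are libraries, lines means and bars SD. Both E8.5 null libraries lie above both E8.5 WT libraries, and at E9.5 the groups overlap.

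Most calls in the floor plate were between the stages. UMIs were summed per library and gene and tested with edgeR, and a gene was called when its adjusted p was under 0.05 and its absolute log2 fold change over 1. From E8.5 to E9.5, 149 genes were called higher (1.4%) and 95 lower (0.889%) in WT cells (244 of 10681 tested, 2.28%), and 192 higher (1.8%) and 161 lower (1.51%) in null cells (353 of 10681, 3.3%). The WT and null comparisons use different libraries. The 2 libraries per genotype at E8.5 limit both. Without E8.5 WT B only 32 genes were called in WT, without E8.5 WT A 156, and without E8.5 null B 187 in null. In summed counts of a mixed label alone, fewer cells of a kind and less RNA per cell cannot be told apart. In thinned cells with a Shh UMI, Ptch1 went from 445 to 160 CPM in WT and from 420 to 125 in null. In those without, it went from 628 to 330 and from 639 to 331. Spon1 was higher and Nkx2-9 lower at E9.5 in both classes and genotypes. Gli1 was lower in cells without Shh (22.4 to 13.9 in null), but not in those with it (5.26 to 6.32 in WT, 6.67 to 7.61 in null). The part of cell numbers in the calls was not tested.

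The hedgehog targets were lower at E9.5. Ptch1 (chr13:63508328-63573598, minus strand), the receptor and feedback inhibitor, stood at 426 and 689 CPM in WT and 439 and 667 in null at E8.5, and at 194, 226, 207 and 254 in WT and 186, 247, 124 and 226 in null at E9.5. Every E9.5 library was below every E8.5 library. Its log2 fold change was -1.48 (SE 0.31, adjusted p = 0.0335, edgeR) in WT and -1.62 (SE 0.30, adjusted p = 0.0143) in null. Gli1 fell from 14.9 to 31.1 CPM at E8.5 to 4.00 to 14.3 at E9.5, by 1.33 (SE 0.38, adjusted p = 0.0402, edgeR) on the log2 scale in WT and by 1.25 (SE 0.35, adjusted p = 0.0279) in null. In Ventral hindbrain progenitors the stages overlapped for both genes. Ptch1 was there at 129 to 201 CPM at E8.5 and 150 to 206 at E9.5, and Gli1 at 8.82 to 25.2 and 17.9 to 29.4. Lrp2, an endocytic receptor for the ligand, fell in WT (log2 fold change -1.13, SE 0.24, adjusted p = 0.00430, edgeR), and in null was at -0.24 (adjusted p = 0.575). Shh was not called, with 89 to 348 CPM at E8.5 and 205 to 365 at E9.5 (log2 fold change 0.40, SE 0.38, in WT and -0.05, SE 0.33, in null). Of 17 tested members of the hedgehog list 3 were called lower in WT and 2 in null (0.889% and 1.51% over all genes), none higher, with a median log2 fold change of 0.15 and -0.05 against 0.02 over all genes. The signal transducer Smo was at 83.3 to 96.1 CPM at E8.5 and 94.6 to 123 at E9.5 and was not called.

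These calls rest in part on single libraries. Without E8.5 WT B the WT log2 fold change of Ptch1 was -1.09 (adjusted p = 0.316, edgeR) and that of Gli1 -0.79 (adjusted p = 0.585). Without E8.5 WT A, Ptch1 was at -1.80 (adjusted p = 0.0566); leaving out any of E9.5 WT A, B or C or E9.5 null A put it at adjusted p = 0.0516 to 0.0761, and any of the same 4 put Gli1 at 0.0516 to 0.0826. The WT call of Lrp2 was lost without E8.5 WT A (0.0663) or B (0.0980). In null, Ptch1 lost its call only without E8.5 null B (-1.32, adjusted p = 0.109), while Gli1 lost it without E8.5 null A (0.104), E8.5 null B (0.182) or E9.5 null C, where it was just under the fold threshold (adjusted p = 0.0475). With every cell thinned to 10000 UMIs, Gli1 was at -1.39 (adjusted p = 0.0683) in WT and at -0.54 (0.602) in null; limma-voom gave 0.0836 in WT, and restricting null cells to those with a tdTomato UMI 0.0522 in null.

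Floor plate genes moved in both directions. Sulf2, which removes sulphate from heparan chains that bind secreted ligands, was at 26.8 to 63.8 CPM at E8.5 and at 93.8 to 131 at E9.5 and was called in WT (log2 fold change 1.12, SE 0.23, adjusted p = 0.00947, edgeR); in null it was 0.81 (SE 0.19, adjusted p = 0.0121), under the fold threshold. Wnt5a, a secreted Wnt ligand, was at 20.9 to 30.9 CPM at E8.5 and 41.3 to 65.8 at E9.5, and was called in null (1.07, SE 0.21, adjusted p = 0.00129, edgeR). In Ventral hindbrain progenitors Wnt5a was also higher at E9.5, at 4.01 to 12.5 and then 21.1 to 33.5 CPM. Sulf2 overlapped there, at 21.6 to 34.6 and 26.6 to 34.7. Nkx6-1 fell in null from 218 and 337 CPM to between 108 and 137 (log2 fold change -1.26, SE 0.20, adjusted p = 0.00330, edgeR), and in WT was at 199 and 259 before and 120 to 167 after (-0.79, adjusted p = 0.0674). Foxa2 was at 162 to 231 CPM at E8.5 and 148 to 189 at E9.5. Its null libraries did not overlap between stages (-0.45, SE 0.10, adjusted p = 0.00566, edgeR, under the fold threshold).

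**Figure D3:**
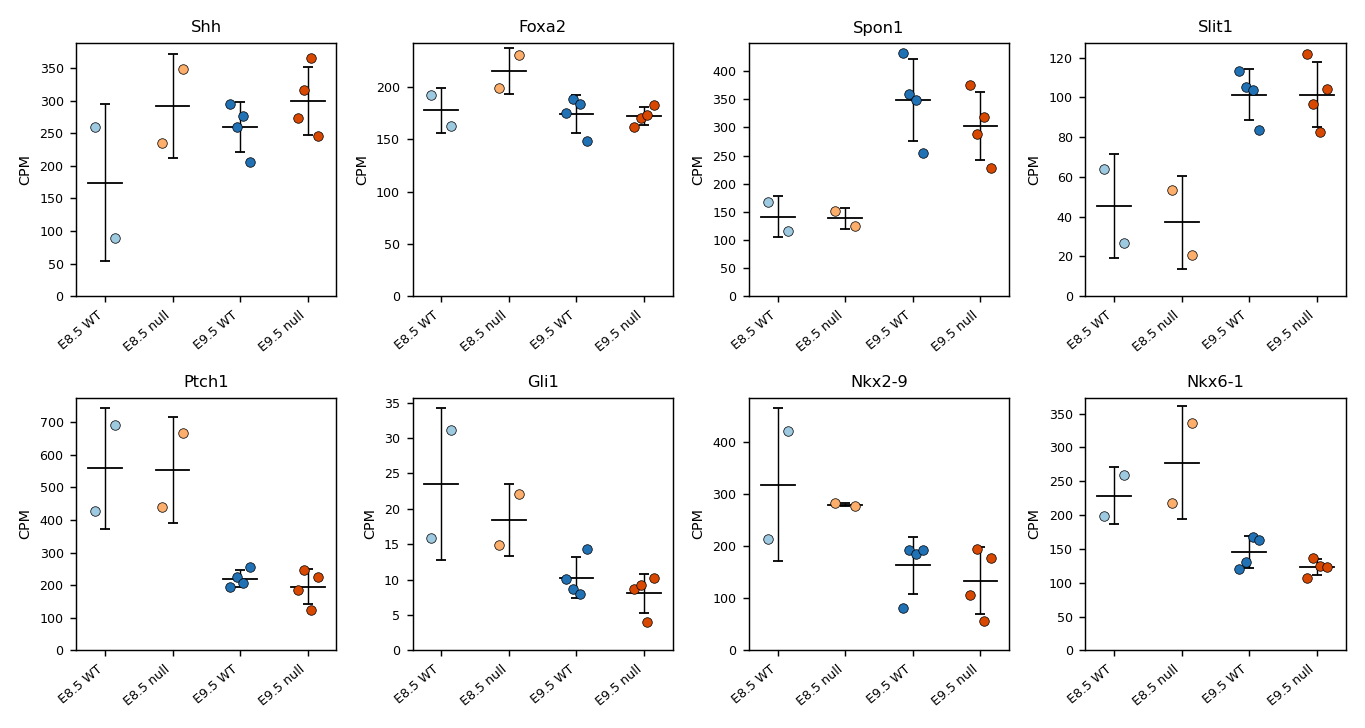
Level in CPM of 8 floor plate and hedgehog genes at E8.5 and E9.5 in WT and null libraries; points are libraries, lines means and bars SD. For Ptch1 every E9.5 library lies below every E8.5 library, while for Shh the stages overlap.

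The midline gene Spon1 had a higher and the lateral gene Nkx2-9 a lower level at E9.5, both without a call. Spon1 was at 116 to 167 CPM at E8.5 and 229 to 433 at E9.5, without overlap, and its log2 fold change was 1.15 (SE 0.30, adjusted p = 0.0676, edgeR) in WT and 0.95 (adjusted p = 0.0736) in null. Nkx2-9 was at 215 to 422 CPM at E8.5 and 56.2 to 195 at E9.5, without overlap (adjusted p = 0.355 and 0.233). Of the 20 floor plate genes, 1 was called higher and 0 lower in WT, and 1 higher and 1 lower in null, against 2.28% and 3.3% of all genes. Their median log2 fold change was 0.46 and 0.34. Libraries of the stages did not overlap for 38% of all genes in WT and 39.6% in null, so non-overlap alone sets no gene apart. Without E8.5 WT B, Sulf2 lost its WT call (0.67, adjusted p = 0.175); without E8.5 null A, Wnt5a lost its null call (0.71, adjusted p = 0.251), and without E9.5 null A it was at 0.98. Without E8.5 null B, Nkx6-1 was at -0.97 (adjusted p = 0.00804), and Foxa2 at -0.36 (adjusted p = 0.0953).

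Foxj1, Fabp7 and Nes were higher at E9.5. Foxj1, a regulator of motile cilia, was at 2.94 to 9.82 CPM at E8.5 and 14.7 to 27.3 at E9.5, without overlap, and was called in both genotypes (log2 fold change 1.40, SE 0.40, adjusted p = 0.0349, edgeR, in WT and 1.83, SE 0.34, adjusted p = 0.000777, in null). Fabp7, a fatty acid binding protein of radial glia, rose from 2.83 to 25.1 CPM to 134 to 204, by a log2 fold change of 3.50 (SE 0.54, adjusted p = 0.00806, edgeR) in WT and 2.96 (SE 0.40, adjusted p = 0.00262) in null. Nes, the intermediate filament of neural progenitors, rose from 109 to 238 CPM to 367 to 559 (1.42, adjusted p = 0.0490, edgeR, in WT and 1.23, adjusted p = 0.0432, in null). Fabp7 and Nes were the 2 members called of 15 tested neural progenitor genes in either genotype, where 1.4% of all genes were called higher in WT and 1.8% in null; the list had a median of 0.29 in WT and 0.11 in null, with 5 of the 15 below 0 in null. The null calls of Foxj1 and Fabp7 were kept whichever library was left out. In WT, Fabp7 was at 2.76 (adjusted p = 0.0766) and Foxj1 at 0.97 (0.419) without E8.5 WT B, and Foxj1 at 0.0574 to 0.0723 without E8.5 WT A, E9.5 WT A or E9.5 WT B; DESeq2, limma-voom and thinned cells gave Foxj1 in WT 0.0883, 0.194 and 0.128. The call of Nes was lost in WT without any of E8.5 WT A or B, E9.5 WT A, B or C or any E9.5 null library (adjusted p = 0.0612 to 0.318), and in null without E8.5 null B (0.189), E9.5 WT A, B or C or any E9.5 null library (0.0598 to 0.0833); it was also lost without a filter on low counts (0.0558 in WT and 0.0514 in null) and with thinned cells (0.0947 and 0.151), and in null with cells restricted to those with a tdTomato UMI, at the threshold itself.

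Several positional genes changed. Hoxb3 was at 4.41 to 14.0 CPM at E8.5 and 29.7 to 62.0 at E9.5, without overlap, and was called in both genotypes (1.95, SE 0.39, adjusted p = 0.00621, edgeR, in WT and 1.53, SE 0.32, adjusted p = 0.00565, in null). Hoxb4 rose from 27.9 to 45.2 CPM to 51.7 to 91.7, by 0.93 in WT and 0.79 in null (adjusted p = 0.00656 and 0.00522, edgeR, under the fold threshold). Both genes were also higher at E9.5 in Ventral hindbrain progenitors. Hoxb3 was there at 9.62 to 18.5 and then 29.0 to 53.3 CPM, and Hoxb4 at 4.01 to 34.6 and 42.5 to 78.0. In null cells Hoxb6 (1.92, adjusted p = 0.0468, edgeR) and Hoxc4 (1.20, adjusted p = 0.0461) were also called higher, and Egr2, a gene of hindbrain segmentation, lower (-3.64, adjusted p = 0.00388). Of 20 tested segment genes, 1 was called higher in WT and 3 in null. Of the boundary genes, En2 was called higher in WT (2.98, SE 0.77, adjusted p = 0.0428, edgeR; 1.92, adjusted p = 0.0528, in null) and the hindbrain gene Gbx2 lower in null (-1.30, adjusted p = 0.0108), while Otx2 was at 73.6 to 115 CPM at E8.5 and 32.2 to 95.7 at E9.5. The null call of Hoxb3 was kept whichever library was left out. Without E8.5 WT A or B the WT adjusted p was 0.0777 or 0.158 for Hoxb3, 0.163 or 0.0629 for Hoxb4 and 0.243 or 0.327 for En2. En2 was also lost in WT without E9.5 WT A, B or D or E9.5 null B (0.0534 to 0.0759). In null, Egr2 (0.140) and Gbx2 (0.302) were lost without E8.5 null A, Hoxb4 (0.0550) without E8.5 null B, and Hoxb6 and Hoxc4 without either E8.5 null library (0.0796 to 0.218), without either E8.5 WT library (0.0738 to 0.0830) and without 4 or more of the E9.5 libraries (0.0584 to 0.0832). By limma-voom the WT calls of Hoxb3 (0.0614) and En2 (0.171) and the null calls of Hoxb6 (0.195) and Hoxc4 (0.150) were lost, the last pair also when null-sorted cells without a tdTomato UMI were left out (0.0838 and 0.132).

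Of 19 tested axon guidance genes 1 was called higher and 1 lower in WT and 2 lower in null, and of 19 tested Wnt genes 1 was called higher in WT and 3 in null. Over all genes 1.4% were called higher and 0.889% lower in WT, and 1.8% and 1.51% in null. Efnb2, a membrane-bound ephrin ligand, fell from 24.5 to 60.8 CPM at E8.5 to 19 to 26.3 at E9.5 (-1.07, adjusted p = 0.0151, edgeR, in WT and -1.06, adjusted p = 0.00242, in null). The semaphorin receptor gene Nrp1 rose in WT from 13.5 and 15.5 CPM to 34.2 to 57.8 (1.36, adjusted p = 0.0151, edgeR), and the semaphorin gene Sema3c fell in null (-1.22, adjusted p = 0.00953). Slit1 was at 20.6 to 63.8 CPM at E8.5 and 82.5 to 122 at E9.5, without overlap and without a call (0.98, adjusted p = 0.181, in WT and 1.06, adjusted p = 0.0735, in null, edgeR). Wnt4 rose in null from 11.9 and 5.88 CPM to 36.7 to 54.4 (1.94, adjusted p = 0.00442, edgeR). Without E8.5 WT B the WT log2 fold change of Efnb2 was -0.30 (adjusted p = 0.771), and without E8.5 WT A or B the adjusted p of Nrp1 was 0.190 or 0.176. In null, Efnb2 was at -0.93 without E8.5 null B, and Sema3c (0.356) and Wnt4 (0.0831) lost their calls without E8.5 null A, Sema3c also with thinned cells (0.0899). By limma-voom the WT calls of Efnb2 (0.0696) and Nrp1 (0.127) were lost.

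Glycolysis and hypoxia-response genes were lower at E9.5 in both genotypes. Pgk1, a glycolytic kinase, stood at 1004 and 1228 CPM in WT and at 1147 and 1198 in null at E8.5, and at 535 to 612 in WT and 591 to 641 in null at E9.5. Its log2 fold change was -1.12 (SE 0.08, adjusted p = 4.37e-10, edgeR) in WT and -1.06 (SE 0.08, adjusted p = 9.35e-10) in null. Ldha, which converts pyruvate to lactate, stood at 2134 and 2573 CPM in WT at E8.5 and at 1227 to 1427 in WT and 1294 to 1544 in null at E9.5 (-0.98, adjusted p = 3.54e-07, edgeR, and -0.76, adjusted p = 6.09e-06; both under the fold threshold). Bnip3, a hypoxia-induced gene of mitochondrial turnover, was at 88.9 to 132 CPM at E8.5 and 32.9 to 54.2 at E9.5 (-1.67, SE 0.18, adjusted p = 1.53e-06, edgeR, and -1.40, SE 0.16, adjusted p = 1.69e-06). The stages did not overlap for any of these 3 genes. Nor did they in Ventral hindbrain progenitors, so these falls were not particular to the floor plate. There Pgk1 was at 1189 to 1515 CPM at E8.5 and 665 to 833 at E9.5. Ldha was at 2878 to 3249 and 1873 to 2250, and Bnip3 at 58.2 to 107 and 35.9 to 57.7. The stages were not tested in the progenitors.

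The promoters of Ldha, Bnip3 and Pgk1 are shown as examples of genes that moved together in both genotypes. They run from 250 bases before to 50 after the start of the RefSeq gene (GRCm38.p6): Ldha at chr7:46845554-46845853 (plus strand), Bnip3 at chr7:138909457-138909756 (minus strand) and Pgk1 at chrX:106186850-106187149 (plus strand). Capitals mark ACGTG or GCGTG on either strand, letters found at the core of hypoxia response elements; CACGTG holds ACGTG on both strands and is counted for each.
Ldha: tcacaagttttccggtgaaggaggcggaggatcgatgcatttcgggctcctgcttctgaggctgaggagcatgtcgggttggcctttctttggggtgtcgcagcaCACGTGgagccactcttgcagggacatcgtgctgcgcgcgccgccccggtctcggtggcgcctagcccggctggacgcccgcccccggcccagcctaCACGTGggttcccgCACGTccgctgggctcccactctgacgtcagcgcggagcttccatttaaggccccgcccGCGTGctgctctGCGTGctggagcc
Bnip3: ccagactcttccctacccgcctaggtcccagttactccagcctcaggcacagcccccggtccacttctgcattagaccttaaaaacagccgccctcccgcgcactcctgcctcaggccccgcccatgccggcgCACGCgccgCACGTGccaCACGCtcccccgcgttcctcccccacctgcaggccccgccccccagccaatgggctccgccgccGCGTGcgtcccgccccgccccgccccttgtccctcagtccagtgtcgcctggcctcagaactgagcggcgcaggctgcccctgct
Pgk1: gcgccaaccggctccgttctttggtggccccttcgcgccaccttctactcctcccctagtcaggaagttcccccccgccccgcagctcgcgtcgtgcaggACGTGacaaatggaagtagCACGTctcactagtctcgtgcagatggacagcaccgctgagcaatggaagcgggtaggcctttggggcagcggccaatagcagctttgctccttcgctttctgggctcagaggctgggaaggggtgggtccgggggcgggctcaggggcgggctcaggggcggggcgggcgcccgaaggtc
The Ldha window holds 7 matches, that of Bnip3 5 and that of Pgk1 2, against a mean of 0.802 over all promoters. Among other members of the list that fell in both genotypes, Aldoa and Tpi1 have 0 matches and Gapdh has 3. Of 22 genes of the glycolysis and hypoxia list, 21 had a promoter in RefSeq, all but Slc2a3. Of these 21, 15 held at least 1 match, against 14380 of 32851 promoters, or 43.8%. The promoters were not matched for base content, and the difference was not tested. A match only says that these letters lie in the window.

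Of the 20 members of that list tested, 4 were called lower in WT and 4 in null, and none higher. At adjusted p under 0.05 without a fold threshold, 13 were lower and 0 higher in each genotype, where 2.81% of all genes in WT and 4.32% in null were lower and 2.45% and 4.03% higher. The median log2 fold change of the list was -0.87 in WT and -0.67 in null, against 0.02 over all genes in both. Beyond Pgk1 and Bnip3, the called members were the glucose transporter gene Slc2a3 in both (-2.18, adjusted p = 0.0441, and -2.34, adjusted p = 0.00880, edgeR), the mitochondrial kinase gene Pdk1 in WT (-1.26, adjusted p = 0.00157) and the glucose transporter gene Slc2a1 in null (-1.53, adjusted p = 0.0451). Smaller falls past the adjusted p were seen in Aldoa (-0.88 and -0.83), Tpi1 (-0.86 and -0.72) and Gapdh (-0.51 and -0.45). The adjusted p of Ldha, Bnip3, Pgk1, Aldoa, Tpi1 and Gapdh stayed under 0.05 in both genotypes whichever library was left out and under every other setting tried, and Pgk1 was at -0.96 in WT without E8.5 WT B. Slc2a3 in WT lost its call without either E8.5 WT library (0.0679 and 0.400), any E9.5 WT library or E9.5 null B or D (0.0670 to 0.0871). Pdk1 was at -0.77 (adjusted p = 0.255) without E8.5 WT A, and Slc2a1 lost its null call without either E8.5 null library (0.0640 and 0.252), E9.5 WT A or B or any E9.5 null library (0.0651 to 0.0977), and also without a filter on low counts (0.0561), without null-sorted cells that lack a tdTomato UMI (0.0584) and with thinned cells (0.106).

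**Figure D4:**
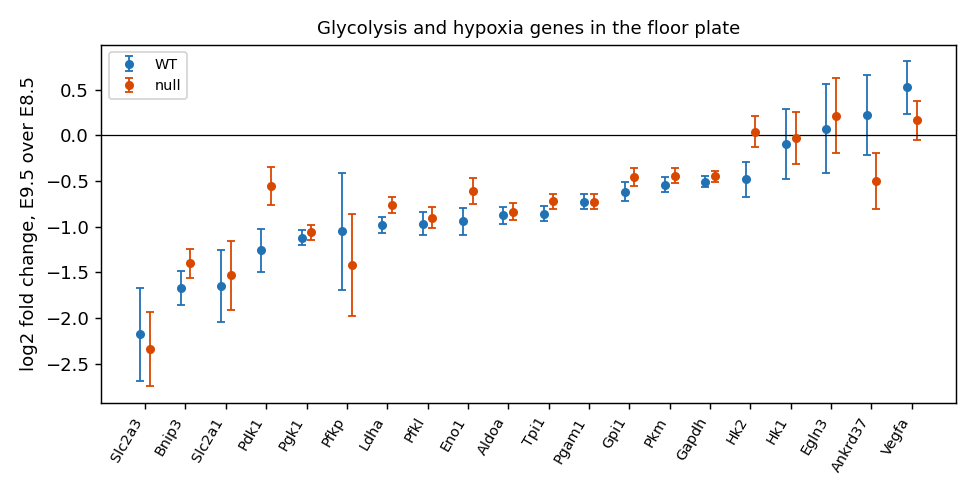
Log2 fold change, E9.5 over E8.5, of the 20 tested glycolysis and hypoxia genes in WT and null floor plate cells; points are edgeR estimates and bars their SE. In each genotype 17 of 20 lie below 0, with medians of -0.87 and -0.67.

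Among all genes, several developmental regulators were called and had no overlap between the stages. Non-overlap was a condition for naming them and held for 38% of all genes in WT and 39.6% in null. Barhl1, a neural homeobox gene, Pmepa1, a feedback inhibitor of TGF-beta signalling, and the transcription factor gene Nfib had no UMI in any E8.5 library. At E9.5 they were at 5.51 to 19.3, 8.28 to 16.1 and 3.71 to 11.2 CPM, so no fold is given. All 3 passed the filter on low counts through the E9.5 libraries alone, and were called in both genotypes. In WT these calls were lost without E8.5 WT A or B, with adjusted p of 0.0509 and 0.0660 for Pmepa1, 0.138 and 0.168 for Barhl1 and 0.139 and 0.171 for Nfib (edgeR); in null, of the libraries left out, only E8.5 null A ended a call, that of Nfib (0.188). By limma-voom the WT calls of Barhl1 (0.109) and Nfib (0.0877) were lost, and with thinned cells those of Barhl1 (0.135) and Foxd4 (0.0982); with null cells restricted to those with a tdTomato UMI Barhl1 was at 0.0724 in WT. In the other direction, Tgfb2, a TGF-beta ligand, fell from 78.5 to 306 CPM to 16.1 to 34.8 (-2.74, adjusted p = 0.0223, edgeR, in WT and -3.27, adjusted p = 0.00246, in null), and the forkhead gene Foxd4 fell from 4.91 to 38.2 CPM to at most 1.16 (-4.32, adjusted p = 0.00927, and -5.72, adjusted p = 7.46e-06). Gsc, a homeobox gene of the anterior midline, was at 2.55 to 5.65 CPM at E8.5 and at most 1.08 at E9.5 (-3.62, adjusted p = 0.0301, and -4.01, adjusted p = 0.0169). Both null calls of Tgfb2 and Foxd4 were kept whichever library was left out, and in WT both were lost without E8.5 WT B (0.274 and 0.307); Tgfb2 was also lost in WT without E9.5 WT A (0.0530) or C (0.0527). Gsc was lost in WT without E8.5 WT A (0.150) or B (0.246) or E9.5 WT A (0.0574) or C (0.0576), and in null without E8.5 null A (0.107) or B (0.0953).

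The imprinted genes Plagl1 and Peg10 and a cytokine receptor gene also separated the stages. Plagl1, a growth-related zinc finger gene, rose from 4.41 to 9.89 CPM to 32.8 to 50.1 (2.10, SE 0.33, adjusted p = 0.000163, edgeR, in WT and 2.58, SE 0.29, adjusted p = 1.67e-06, in null), and both calls held whichever library was left out. Peg10 fell from 92.6 to 137 CPM to 36.5 to 73.4 (-1.18, adjusted p = 0.00774, edgeR, and -1.31, adjusted p = 0.00126). Lifr, a receptor subunit upstream of STAT3, fell from 25 to 34.4 CPM to 12 to 18.3 (-1.19, adjusted p = 0.00498, edgeR, and -1.19, adjusted p = 0.000559). Of 20 tested STAT3 and cytokine genes, 1 was called higher and 3 lower in WT, and 0 and 2 in null. Over all genes 1.4% were called higher and 0.889% lower in WT, and 1.8% and 1.51% in null. The list's medians were -0.15 and -0.02. Another receptor gene, Cntfr, was higher at E9.5 in WT (1.02 to 1.46 over the other settings, 15 of 19 keeping the call). In WT, leaving out E8.5 WT A or B ended the calls of Peg10 (0.0752 and 0.156) and Lifr (0.0833 and 0.0798), and in null leaving out E8.5 null A did (0.118 and 0.210); with thinned cells Lifr was at 0.0809 in WT.

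The called markers of other tissues were lower at E9.5, but for Foxj1 of the node and notochord list. Krt18, a keratin of simple epithelia, was at 72.4 to 120 CPM at E8.5 and 16.8 to 44.2 at E9.5 (-2.15, adjusted p = 0.0324, edgeR, in WT and -1.85, adjusted p = 0.0248, in null). The summed level of the 13 gut endoderm markers ran from 255 to 335 CPM at E8.5 and from 167 to 239 at E9.5, and that of the 13 node and notochord markers from 155 to 236 and from 116 to 159, which overlapped. Of 6 tested gut endoderm markers 2 were called lower in WT and 3 in null (medians -1.40 and -1.61). Of 6 tested node and notochord markers 1 was called higher and 1 lower in WT and 1 higher and 2 lower in null. The 1 called higher was Foxj1, at 0 CPM in the notochord label and at 18.6 CPM in the floor plate, its highest label. Krt18 is in both lists and counts in each. No member of the mesoderm, neural crest or neuron lists was called but 1 neuron gene, lower in null; their medians were -0.31, -0.13 and 1.27 in WT and 0.44, 0.68 and 0.61 in null, over 7, 3 and 11 genes. The neuron medians rest on genes without a UMI in a whole group, 4 in WT and 2 in null, and were 0.61 in WT and 0.46 in null with those genes at their bound. Egr1, an immediate early gene that also answers dissociation, fell from 31.9 to 39.7 CPM to 4.64 to 15.1 (-2.0, adjusted p = 0.0154, edgeR, and -1.97, adjusted p = 0.00368), and 2 of 9 tested dissociation response genes were called lower in each genotype, where 0.889% of all genes in WT and 1.51% in null were. The part of these genes in the stage differences was not tested. Krt18 lost its WT call without E8.5 WT A or B or E9.5 WT B, C or D (0.0570 to 0.316) and its null call without E8.5 null A or B or E9.5 null A or D (0.0533 to 0.139), and when null-sorted cells without a tdTomato UMI were left out (0.0753); Egr1 lost it in WT without E8.5 WT A (0.139) or B (0.195) and in null without E8.5 null A (0.0617).

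The comparison of null with WT asks how the 2 kinds of floor plate cell differed. It cannot tell the loss of Stat3 apart from line and culture history. Stat3 (chr11:100885098-100939540, minus strand), the transcription factor targeted in the null line, stood at 3.68 and 1.41 CPM in WT and 2.98 and 2.94 in null at E8.5, levels that rest on few UMIs per library. At E9.5 Stat3 stood at 7.0, 6.48, 5.78 and 5.43 CPM in WT and at 2.17, 3.09, 0.571 and 1.46 in null, without overlap (log2 fold change -1.78, SE 0.36, adjusted p = 0.0263, edgeR). Because UMIs were counted at the 3′ end, past the deleted exons, this level is no check of the genotype. Over both stages the log2 fold change was -1.44 (adjusted p = 0.0748). The E9.5 call was lost without any of E9.5 WT A to D or E9.5 null A, C or D (0.0503 to 0.116) and by DESeq2 (0.0630) and limma-voom (0.0536). Socs3, the feedback inhibitor that STAT3 induces, was at 8.82 to 19.8 CPM at E8.5 and at 10.9 to 19 at E9.5 in overlapping groups (log2 fold change over both stages -0.16, adjusted p = 0.902, edgeR). Of the genes of STAT3 and cytokine signalling, 0 of 20 tested were called over both stages, where 0.122% of all genes were, and at E9.5 Stat3 was the 1 called of 18 tested, where 0.11% of all genes were.

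Haemoglobin RNA, which floor plate cells do not make, moved with genotype. It stood at 1306 and 1443 CPM in WT and at 319 and 1183 in null at E8.5, and at 275 to 1683 in WT and 7.73 to 80.8 in null at E9.5 (mean difference over both stages -726 CPM, exact permutation p = 0.00476, two-sided, the smallest the design can give). The 12 mesoderm markers summed to 81.0 to 161 CPM in WT and 48.5 to 50.2 in null at E8.5, and to 62.2 to 164 and 44.8 to 104 at E9.5. The 8 neural crest markers summed to 24.5 to 26.8 and 10.3 to 11.5 at E8.5 and to 20.1 to 70.5 and 20.1 to 26.3 at E9.5. Their part in the genotype differences was not tested, and haemoglobin genes were left out of the fits.

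Few genes passed the test between genotypes. At E8.5, 4 of 7093 tested genes were called (0.0564%), and 270 were under 0.05 before adjustment, whereas neither DESeq2 nor limma-voom made a call. At E9.5, 11 of 10034 were called (0.11%), 7 higher in null (0.0698%) and 4 lower (0.0399%), and over both stages 13 of 10681 (0.122%), 9 higher (0.0843%) and 4 lower (0.0374%). The libraries of the genotypes did not overlap for 32.1% of the genes at E8.5, 4.48% at E9.5 and, in the same direction at both stages, 1.09%. The comparisons at 1 stage and over both share their libraries, and share them with the stage comparisons.

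No gene of floor plate identity was among them. Shh was at 259 and 89 CPM in WT and 235 and 348 in null at E8.5, and at 295, 259, 276 and 205 in WT and 273, 316, 365 and 245 in null at E9.5. The groups overlapped at both stages (log2 fold change over both stages 0.33, SE 0.21, adjusted p = 0.808, edgeR). Foxa2 was at 148 to 189 CPM in WT and 162 to 183 in null at E9.5 (0.05 over both stages, adjusted p = 0.923), Nkx6-1 at 120 to 167 and 108 to 137 (-0.11, adjusted p = 0.935), and Ptch1 at 194 to 254 and 124 to 247 (-0.13, adjusted p = 0.945). Gli1, itself a hedgehog target, was at 7.99 to 14.3 CPM in WT and 4.00 to 10.2 in null at E9.5 (-0.38, adjusted p = 0.726). Over both stages, 0 of 20 tested floor plate genes, 0 of 17 hedgehog genes, 0 of 12 dorsoventral factors, 0 of 12 anterior and boundary factors, 0 of 20 hindbrain segment genes and 0 of 19 axon guidance genes were called, where 0.122% of all genes were. The smallest adjusted p in these lists was 0.393, 0.726, 0.411, 0.752, 0.194 and 0.638. Their median log2 fold changes were 0.10, -0.00, -0.28, -0.27, -0.10 and -0.04, against 0.00 over all genes.

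Of the imprinted gene list, 2 of 23 tested were called lower in null and 0 higher at E9.5 (0.0399% and 0.0698% over all genes), and over both stages 1 of 24 was called lower. The list was chosen with earlier results of these data known, so these counts are no test of imprinted genes as a set. The list's median log2 fold change was -0.06 at E9.5 and -0.04 over both stages, with 13 genes below 0 and 11 above over both. The members called were Grb10 and H19. Grb10 (chr11:11930508-12038683, minus strand), a growth-restraining adaptor of insulin and IGF receptors, stood at 478, 447, 487 and 495 CPM in WT and 21.7, 61.4, 15.7 and 19.8 in null at E9.5 (log2 fold change -4.06, SE 0.37, adjusted p = 0.0162, edgeR). At E8.5 it stood at 556 and 589 in WT and at 31.5 and 661 in null. The 2 null libraries lay at opposite ends and the groups overlapped (-0.86, adjusted p = 0.997, edgeR). The library at 661 was E8.5 null B, where 62.5% of the null cells held a tdTomato UMI, against 94.4% in E8.5 null A. The part of cells without a tdTomato UMI in these levels was not tested. H19 (chr7:142575529-142578143, minus strand), a noncoding RNA, stood at 199, 110, 170 and 194 CPM in WT and 11.7, 24.0, 4.85 and 19.8 in null at E9.5 (-3.55, SE 0.40, adjusted p = 0.0370, edgeR) and was lower at both stages together (-2.95, SE 0.45, adjusted p = 0.0359). At E8.5 H19 was at 106 to 134 CPM in WT and at 5.88 and 55.7 in null, the lower null value being that of E8.5 null B. The neighbour of H19, the growth factor gene Igf2, was at 24.1 to 49.99 CPM in WT and 35.6 to 82.1 in null at E9.5. Nap1l5 (chr6:58905233-58907076, minus strand), a nucleosome assembly protein gene that is known as imprinted but is not in that list, was at 8.06 to 10.4 CPM in WT and 19 to 24.8 in null at E9.5 (1.32, SE 0.17, adjusted p = 0.000151, edgeR) and at 6.14 and 4.24 in WT and 20.4 and 5.88 in null at E8.5. Grb10 lost its E9.5 call without E9.5 WT A, C or D or E9.5 null A or D (0.0563 to 0.0780) and H19 without any library but E9.5 WT B (0.0513 to 0.134), with log2 fold changes from -4.07 to -3.93 and from -3.85 to -3.23; Nap1l5 kept its call in each case. Over both stages H19 lost its call without any library but E8.5 null A (0.0502 to 0.109).

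Of the genes higher in null, Zdbf2 (chr1:63273265-63314576, plus strand), which is known as imprinted and is not in the imprinted gene list either, and Cwc22 (chr2:77881159-77946375, minus strand), a splicing factor gene whose copies vary in number between mouse strains and whose counts are therefore uncertain, had the smallest adjusted p over both stages and at E9.5, respectively. Cwc22 stood at 39.2, 34.5, 33.6 and 32.2 CPM in WT and at 180, 150, 193 and 175 in null at E9.5 (2.33, SE 0.09, adjusted p = 4.99e-15, edgeR). At E8.5 it stood at 88.4 and 77.7 in WT and 96.9 and 160 in null. Its genotype effect was larger at E9.5 than at E8.5 by 1.81 (SE 0.24, adjusted p = 0.00110, edgeR), the only gene of 10681 called in that test (0.00936%, 495 at an unadjusted p under 0.05); without E8.5 WT A no gene was called. Zdbf2 was at 59.9 to 74.5 CPM in WT and 120 to 179 in null at E9.5, and at 66.4 and 71.2 against 120 and 137 at E8.5, without overlap (1.04 over both stages, SE 0.09, adjusted p = 3.10e-07, edgeR); its log2 fold change fell under the fold threshold at E9.5 without E9.5 null B (0.96), and over both stages without E9.5 WT A (0.99) or E9.5 null B (0.94) and with thinned cells (0.95). Cisd3 (chr11:97685826-97688621, plus strand), an iron-sulphur protein gene of mitochondria, was at 3.60 to 9.37 CPM in WT and 17.4 to 23.1 in null at E9.5 (1.46 over both stages, SE 0.20, adjusted p = 5.77e-05). Pusl1 (chr4:155887879-155891781, minus strand), a pseudouridine synthase gene, was at 8.41 to 22.5 CPM in WT and 3.53 to 7.73 in null at E9.5 and at 19.6 and 21.2 against 5.53 and 7.35 at E8.5 (-1.63 over both stages, SE 0.24, adjusted p = 0.000255). Over both stages Cisd3, Nap1l5, Pusl1 and the histone gene Hist1h4i (-2.01, SE 0.22, adjusted p = 0.00158, edgeR) were called in all 19 settings tried, Hist1h4i being a member of a family of near-identical copies whose reads may be shared.

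**Figure D5:**
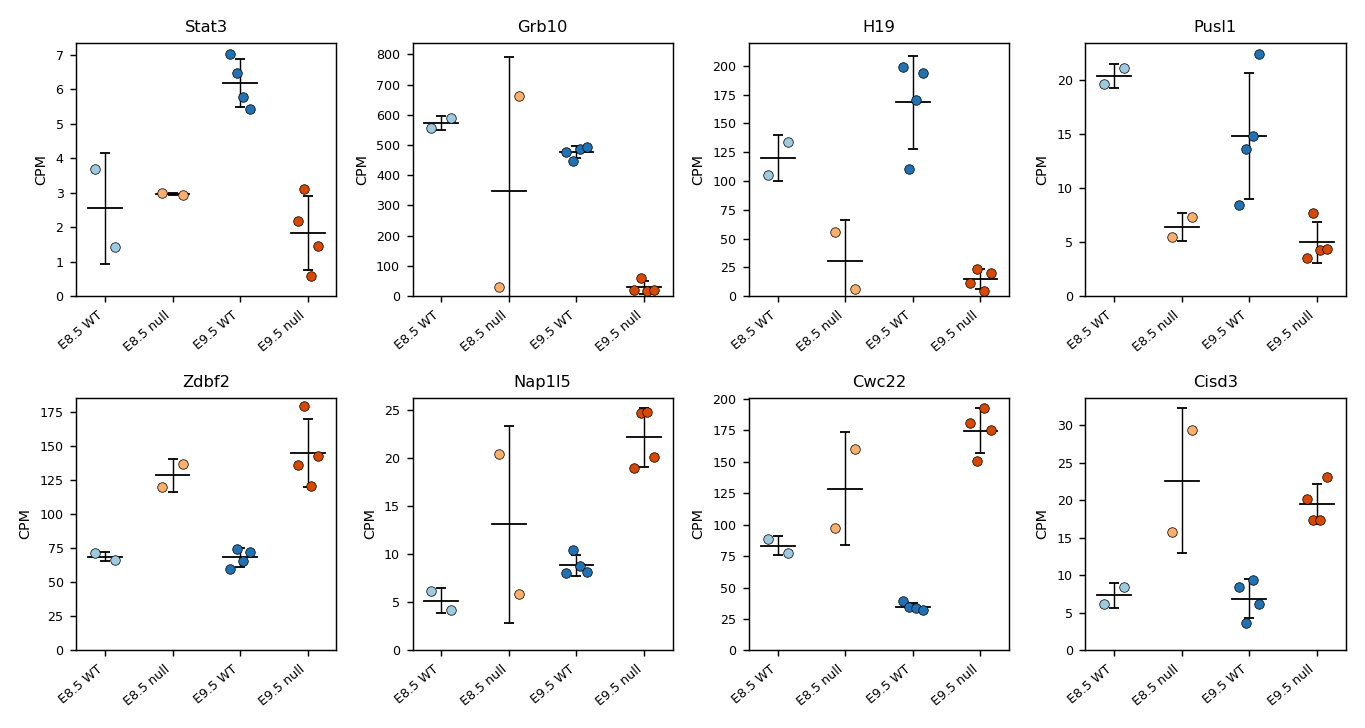
Level in CPM of 8 genes in WT and null libraries at E8.5 and E9.5; points are libraries, lines means and bars SD, with axes from 0, where the SD bars of Grb10 and H19 in E8.5 null are cut. At E9.5 every null library lies below every WT library for Grb10 and H19 and above it for Cwc22 and Zdbf2, and at E8.5 the 2 null libraries of Grb10 lie at 31.5 and 661.

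Other calls were of neural and mesodermal genes. Barhl2, a neural homeobox gene, was at 3.03 to 8.06 CPM in WT and 11.7 to 19.4 in null at E9.5 (1.45, SE 0.26, adjusted p = 0.00857, edgeR), and at most 2.45 at E8.5. Tac1, which encodes the neuropeptide substance P, was at 1.16 to 7.0 CPM in WT and 7.32 to 19.4 in null at E9.5 (1.77 over both stages, SE 0.36, adjusted p = 0.0359); this call was lost without E8.5 WT B, E8.5 null A, E9.5 WT B or C or E9.5 null A, B or C (0.0508 to 0.129). At E8.5, Ifitm3, a membrane protein gene of an interferon-induced family, was at 45.4 and 50.9 CPM in WT and 101 and 106 in null (1.11, SE 0.21, adjusted p = 0.0485, edgeR), and at E9.5 at 36.8 to 61.6 and 36.2 to 49.4. Meox1, a somite gene, was at 27.0 and 39.6 CPM in WT and 5.95 and 1.47 in null at E8.5 (-2.74, SE 0.46, adjusted p = 0.0147, edgeR), and at 15.1 to 36.6 and 8.89 to 20.8 at E9.5. It is one of the 12 mesoderm markers whose summed level was lower in null at E8.5. The call of Ifitm3 was lost without E8.5 WT A (adjusted p = 0.139), by DESeq2 and limma-voom (1.0 and 0.143), with RLE factors (0.0609), with all genes kept (0.0664) and with thinned cells (0.298), and that of Meox1 without E8.5 WT B (0.328) and by DESeq2 and limma-voom (0.317 and 0.143). Barhl2 lost its E9.5 call without E9.5 WT C or D or E9.5 null D (0.0503 to 0.0553), and when null-sorted cells without a tdTomato UMI were left out (0.114). Below the fold threshold, Id1, a target of BMP signalling, was lower over both stages (-0.46, adjusted p = 0.0293, edgeR), at 51.5 to 79.2 CPM in WT and 43.7 to 54.4 in null at E9.5. Its adjusted p was 0.0630 by limma-voom, 0.356 with thinned cells and 0.0594 to 0.104 without E8.5 null A, E9.5 WT A, C or D or E9.5 null B, C or D.

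The genotype effect in the floor plate was set against that in Ventral hindbrain progenitors, 1446 cells of the same libraries. The difference of the effects was called for 3 of 11110 genes (0.027%), Pcdh17, Nr2e1 and Adamts5, with 579 at an unadjusted p under 0.05. Pcdh17, a protocadherin, was at 1.80 to 5.51 CPM in WT and 7.32 to 11.2 in null floor plate at E9.5, but at 21.8 to 36.5 and 22.6 to 33.4 in the progenitors (difference over both stages 1.40 on the log2 scale, SE 0.27, adjusted p = 0.0396, edgeR). At E8.5 the order in the floor plate was the reverse, with 2.45 to 2.83 CPM in WT and 1.28 to 1.47 in null. These E8.5 levels rest on a few UMIs per library, so their order is uncertain. Nr2e1, a nuclear receptor of neural progenitors, was at 0.350 to 4.32 CPM in WT and 1.90 to 7.73 in null floor plate at E9.5 and at 3.54 to 7.82 and 0.930 to 2.65 in the progenitors (2.62, SE 0.53), with no UMI in the floor plate at E8.5. Adamts5, a matrix protease, was at 1.41 to 4.91 CPM in WT and 14.7 to 22.5 in null floor plate at E8.5, and at 9.35 to 14.0 and 8.78 to 42.2 at E9.5, where the groups overlapped. In the progenitors it was at most 1.51 at E8.5 and 3.31 at E9.5 (difference 1.87, SE 0.38). No difference was called without E9.5 WT C or D, 1 without E9.5 null C, and 1 of 11414 when all hindbrain progenitor labels served as the comparator. Zdbf2, Cwc22, H19, Pusl1, Hist1h4i, Cisd3 and Stat3 were also past an adjusted p of 0.05 in the progenitors, where their log2 fold changes were 1.01, 1.77, -3.29, -2.07, -2.11, 0.95 and -1.61.

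The share of RNA from G2 and M phase genes was lower in null cells. The share of a cell's UMIs from 24 G2 and M phase genes, averaged over cells, was 0.512% in WT and 0.409% in null at E8.5 and 0.511% ± 0.0440 (SD, n = 4) and 0.425% ± 0.0391 at E9.5. The mean difference over both stages was -0.0944 percentage points (exact permutation p = 0.00476, two-sided, the smallest of 420 arrangements), and at E9.5 the p was 0.0286, the smallest of 70. On UMIs summed per library the p was 0.0143 over both stages and 0.0857 at E9.5. Of the 24 genes, 23 had a negative log2 fold change over both stages (median -0.21) and 0 were called, the smallest adjusted p being 0.0960 (edgeR); among them Top2a, which untangles DNA at mitosis, was at -0.23 and the proliferation marker Mki67 at -0.27. In Ventral hindbrain progenitors the summed share differed by -0.0393 percentage points (exact permutation p = 0.0476), and the 2 cell types differed in that value by -0.0350 percentage points (exact permutation p = 0.2). The share of S phase genes differed by -0.00231 percentage points (p = 0.824), and UMIs per cell (p = 0.138) and the mitochondrial share (p = 0.348) passed no exact permutation test over both stages. Adjusted over the 8 measures permuted over both stages, the shares of cells, UMIs and haemoglobin included, the p of the G2 and M phase share was 0.0190 and that of haemoglobin 0.0190, and the other 6 were at 0.229 or above.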

How the data were processed

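Single-cell RNA was measured in 16 libraries of sorted chimeric embryos, of which the 12 from E8.5 and E9.5 hold floor plate cells. The deposited matrix holds raw UMI counts per gene and cell (29453 genes, 41832 cells), which the authors made with Cell Ranger on mm10 and which were used without further normalization. The deposited table of cells gives the stage, the sort, the quality and doublet calls, the percent of mitochondrial RNA, the atlas label with its fraction of agreeing neighbours, and a doublet score, all computed by the authors. Library names matched no sample title, so libraries took their group from the stage and sort columns, and embryo pools could not be paired.

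Floor plate UMIs were summed per library with more than 15 cells, and 8178 genes of the kinds the study left out (such as predicted genes and those of haemoglobins, ribosomal proteins, the Y chromosome and mitochondria) were removed; imprinted genes were kept. Genes were filtered with filterByExpr, scaled with TMM and tested with edgeR 4.0.16 (quasi-likelihood, Benjamini-Hochberg over all genes tested), in R 4.3.3, with a call where the adjusted p was below 0.05 and the log2 fold change exceeded 1 in size. DESeq2 1.42.0 and limma-voom (limma 3.58.1) were alternatives. Cell numbers were tested the same way over labels with at least 20 cells. Single values were permuted over libraries within stages. Tests were checked on simulated counts. Genes named are the 10 called genes of largest change in each direction whose libraries did not overlap, of which those of known role or in the lists are described, and members of lists. Members and lists were chosen with earlier results of these data known. Results for a few genes are not reported here.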

Additional observations from a re-analysis of the deposited data

Results flagged for a closer look

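Of 106 groups of 4 libraries examined, 5 held a library far from the others by Dixon's ratio, and chance flags about 1 in 20 such groups. Nkx2-9 was at 82.0 CPM in E9.5 WT A against 186 to 193 in the other WT libraries of that stage, and Nkx6-2 in the same library at 46.9 CPM against 88.4 to 96.1. Grb10 was at 61.4 CPM in E9.5 null B against 15.7 to 21.7. In E9.5 null C, Bnip3 was at 54.2 CPM against 38.3 to 41.0, and the floor plate took 57.7% of the floor plate and Ventral hindbrain progenitor cells against 42.0% to 43.6%.

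An effect of genotype that differed between groups was found for 4 genes by edgeR's test of the difference. The log2 effect of Cwc22 was 1.81 larger at E9.5 than at E8.5. The log2 effect in the floor plate exceeded that in Ventral hindbrain progenitors by 1.40 for Pcdh17, 2.62 for Nr2e1 and 1.87 for Adamts5.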

How the results depend on the processing

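No paired analysis was possible because the names of the libraries match no sample title and the embryo pools of the labels could not be tied to them. Of the summary results, 167 values under an alternative were rated the same, 31 moved and 4 turned. For tests, the same means the same direction and side of the threshold. For counts of calls, it means within a fixed ratio of the main count. The settings of at least 5 and over 30 cells per library left out no library, so their counts among the 167 could not move. At E8.5 the 4 genotype calls became 0 by DESeq2, 0 by limma-voom, 0 with cells thinned to 10000 UMIs and 16 without a filter on low counts, and 9 to 30 without 1 library. At E9.5 the 11 calls became 35 without the filter, 26 without a fold threshold, 7 with thinned cells and 6 to 12 without 1 library. Over both stages the 13 calls became 52, 35 without a fold threshold, and 8 to 18 without 1 library. The 244 stage calls in WT became 136 by limma-voom (25% of them higher at E9.5, against 61.1%), 562 without a fold threshold and 32 to 264 without 1 library; the 353 in null became 891 and 187 to 367 (38.9% higher by limma-voom, against 54.4%). The single call of a genotype effect that differed between stages became 3 without the filter, and 0 to 3 without 1 library. The 3 calls against Ventral hindbrain progenitors became 1 against all hindbrain progenitor labels and 0 to 4 without 1 library.

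The log2 ratio of floor plate cell numbers at E9.5 was -0.0131 outside blood and extra-embryonic types and -0.160 to 0.181 without 1 library, turning without E9.5 WT D (-0.148), null C (-0.160) or null D (-0.0236); at E8.5 it was 1.10 to 1.32, between stages -1.45 to -1.02, and averaged over stages 0.174 to 0.539. A trend of dispersion with abundance, the share of the ventral pair, and the cell cycle share in Ventral hindbrain progenitors and of summed UMIs were added after seeing the data; with the trend the adjusted p of the E8.5 ratio was 0.352 (edgeR) against 0.351 without it. The cause of these changes was not tested. With 32 to 138 cells per library, genes of a few UMIs were at the limit of detection.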

Other observations

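Genes of S phase had higher levels at E9.5 than at E8.5 in null floor plate cells. At adjusted p under 0.05 and any fold change, 11 of 24 were higher in null and 1 in WT, where 4.03% and 2.45% of all genes were, and the median log2 fold change of the list was 0.43 and 0.22; 0 of the 24 passed the test of a genotype effect that differed between the stages (edgeR). Rrm2, a subunit of ribonucleotide reductase, was at 193 and 187 CPM at E8.5 and 318 to 384 at E9.5 in null (0.73, SE 0.10, adjusted p = 1.56e-05, edgeR), and at 214 and 225 and 284 to 341 in WT (0.32, adjusted p = 0.0721). Library depth moved with stage, and its part in these levels was not tested.

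Between genotypes at E9.5, Col2a1, a collagen gene of the notochord sheath and of floor plate, was at 53.5 to 61.5 CPM in WT and 28.9 to 48.6 in null (-0.63, SE 0.13, adjusted p = 0.0242, edgeR), under the fold threshold. Its adjusted p was above 0.05 without any of E9.5 WT A to D or E9.5 null B to D (0.0503 to 0.110) and 0.517 with cells thinned to 10000 UMIs.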
